A study of Saccharomyces cerevisiae with 4 samples.

Results

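Ty elements are the retrotransposons of budding yeast (Saccharomyces cerevisiae), and their transcripts serve both as messenger RNA and as the genome that is copied back into DNA. A full-length Ty transcript carries a short open reading frame (ORF) for Gag, the protein of the virus-like particle, and a long ORF that is reached by ribosomal frameshifting and gives the Gag-Pol fusion with protease, integrase and reverse transcriptase. In yeast cells Ty1 RNA is abundant, is exported to the cytoplasm, and is translated or packaged into particles there. The 7 ORFs described here are long Ty ORFs, matched by systematic name in both deposited tables. They are 7 of 5243 named genes with a value on at least 1 array, and 7 of the 27 listed Ty ORFs with a value. They were chosen with their ratios in this comparison known: the log ratios of replicates 2, 3 and 4, which selected some of them by sign and size, are given as a description. They are the Ty ORFs with a value on each of replicates 2, 3 and 4, and all 7 also had a value on replicate 1.

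On each of 4 two-channel arrays, cDNA of the RNA that came down with zzMex67 was hybridised together with cDNA of the RNA that came down with the bare zz tag, the control. Mex67 takes messenger RNA out of the nucleus through the pore, and zz is a protein A module that binds antibodies. The comparison addresses which RNAs associate with the export receptor beyond the tag's own background. The 4 arrays form 1 group and are named replicates 1 to 4 in accession order. The labels name neither the yeast strain nor its growth, and they do not say whether the arrays came from separate cultures, so the spread between arrays may be technical.

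Replicate 1 stands alone on a platform of 7680 spots, and replicates 2, 3 and 4 share a second platform of 12800 spots. Spots with a value made up 75.5%, 7.84%, 36.0% and 35.1% of the arrays of replicates 1 to 4, and covered 4409, 524, 2280 and 2421 named genes. Each value below is a log2 ratio, averaged over the spots of an ORF, from which the median of all genes of that array was taken away. Positive values probably stand for more RNA with zzMex67 than with zz, since the titles put zzMex67 before zz and it was in channel 1 of replicates 1, 3 and 4. It was in channel 2 of replicate 2, whose sign was therefore turned. This direction is likely and not certain, since the files do not name the numerator, and a ratio is described as higher or lower only. Agreement between arrays does not settle it either: across genes, which are not independent replicates, the correlations were between -0.114 and 0.084. Those of replicate 2 as turned were -0.029, 0.012 and -0.114 with replicates 1, 3 and 4. Arrays of the same channel order correlated as little: 0.060 (replicates 1 and 3), 0.084 (1 and 4) and -0.018 (3 and 4). Across genes the arrays thus agreed little with either sign of replicate 2.

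The long Ty ORFs mostly lay above the array median. Their medians were 1.20, 0.98, 0.87 and 1.64 on replicates 1 to 4, or 2.30-fold, 1.97-fold, 1.83-fold and 3.12-fold above the median gene. On replicates 1 and 4 all 7 were above it, and on replicates 2 and 3 it was 6 of 7. The ORFs below it were YAR009C on replicate 2 and YJR027W on replicate 3. At 2-fold or more above the median there were 5 of 7 on replicate 1, against 26% of its genes, and 6 of 7 on replicate 4, against 22.5%. There were 3 of 7 on replicate 2, against 27.7% of genes, and 3 of 7 on replicate 3, against 28.9%. At 2-fold or more below the median there was 1 of 7 on replicate 3, against 21.9% of genes. On replicates 1, 2 and 4 it was 0 of 7, against 21.1%, 29.2% and 17.4% of genes. Because the members were picked with these values in view, the counts describe the ORFs and are not tested. The shares cover all genes with a value on that array, while the members had a value on all 4. The 119 genes measured on all 4 arrays had medians of 2.09, -0.16, 0.72 and 1.38 on replicates 1 to 4. The members' median was below theirs on replicate 1 and above it on replicates 2, 3 and 4.

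**Figure D1:**
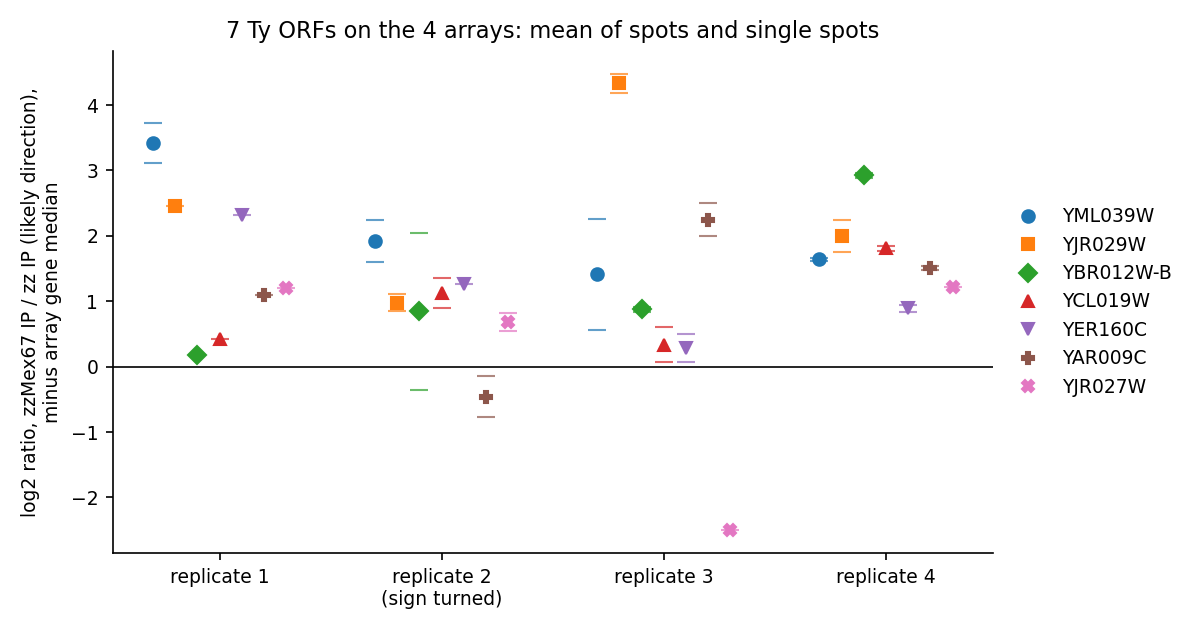
Log2 ratio minus the array's gene median (vertical axis) for the 7 long Ty ORFs on the 4 arrays (horizontal axis). The ratio is probably zzMex67 over zz precipitate, with the sign of replicate 2 turned. Large symbols are the mean of an ORF's spots and short bars its single spots. On replicate 4 all 7 lie between 0.89 and 2.92, while on replicate 3 they reach from -2.502 to 4.33.

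YML039W, a Ty1 Gag-Pol ORF, had ratios of 3.42, 1.92, 1.41 and 1.64 on replicates 1 to 4. It was the only member at 2-fold or more above the median on every array, where 4.2% of the 119 genes measured on all 4 arrays were. Its mean over replicates 2, 3 and 4 was 1.66 ± 0.26 (SD, n = 3), the smallest SD of the 7. Both statements rest on the turned sign of replicate 2, since as deposited it read -1.92 there and its mean was 0.38. On replicate 1 it had 2 spots far apart in spot number (3466 and 4618), which read 3.11 and 3.73. Its duplicate spots on replicate 3 differed more, at 0.56 and 2.26, so the small spread of the means hides a wider one between spots.

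YJR029W, another Ty1 Gag-Pol ORF, had 2.45, 0.98, 4.33 and 1.999 on replicates 1 to 4. Its value on replicate 3 was 20.2-fold above the median gene, rank 23 of 2280 genes, with spots at 4.18 and 4.48. The spots close to it in number were also high there, with a median of 2.21 over its run of 400 consecutive spot numbers. Here and below, position means the spot number, since the layout on the slide was not used. Relative to that run its spots read 1.97 and 2.27. The part of such position differences in the ratios was not tested.

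YJR027W belongs to the Ty1 element next to that of YJR029W on the same chromosome, and it was the farthest from it in ratio among the 21 pairs of members. It had 1.20, 0.68, -2.502 and 1.22 on replicates 1 to 4. On replicate 3 only 1 of its 2 spots had a value, and its run of 400 spots had a median of -0.94 over 18 spots with a value. On replicate 4 it was also read from 1 spot. Replicate 3 alone lay below the median, and it turned the mean over replicates 2, 3 and 4 to -0.20 ± 2.01 (SD, n = 3), against 0.95 without that array.

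YBR012W-B, a Ty1 Gag-Pol ORF, had 0.18, 0.84, 0.87 and 2.92 on replicates 1 to 4. It was above the median on each array, lowest of the members on replicate 1 and highest on replicate 4. Its duplicate spots on replicate 2 were on opposite sides of the median, at 2.05 and -0.36, so its sign on that array rests on 1 spot. On replicate 4 its spots read 2.97 and 2.88, in a run whose median was 1.43. Without replicate 4 its mean over the second platform was 0.86, against 1.55 ± 1.19 (SD, n = 3) with it.

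YCL019W is the Gag-Pol ORF of a Ty2 element, a family closely related to Ty1, and the other 6 members are Ty1. It had 0.42, 1.13, 0.34 and 1.81 on replicates 1 to 4, above the median on each. The Ty2 ORF lay inside the range of the Ty1 ORFs on every array, and its profile was the nearest of the 7 to the members' median profile (root mean square difference 0.49, with the ORF itself in that median).

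YER160C, a Ty1 Gag-Pol ORF, had 2.32, 1.27, 0.29 and 0.89 on replicates 1 to 4, also above the median on each. Its value on replicate 2 came from 1 spot. On replicate 3 its spots, 0.51 and 0.066, lay below the median of 1.29 of their run, so relative to that run they were at -0.79 and -1.23.

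YAR009C, a Ty1 ORF annotated with 3591 bases in RefSeq's R64 assembly, where the other members have between 5269 and 5314, does not overlap the short ORF of its element there. It had 1.09, -0.46, 2.25 and 1.51 on replicates 1 to 4. It was the only member below the median on replicate 2, where both of its spots were, at -0.15 and -0.77.

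In order of their means over replicates 2, 3 and 4 the ORFs were YJR029W (2.44 ± 1.72), YML039W (1.66 ± 0.26), YBR012W-B (1.55 ± 1.19), YAR009C (1.10 ± 1.40), YCL019W (1.09 ± 0.74), YER160C (0.81 ± 0.50) and YJR027W (-0.20 ± 2.01) (SD, n = 3 each). No neighbours in this order differed by more than the larger of their 2 SDs. With replicate 2 as deposited the means were 1.78 for YJR029W, 1.41 for YAR009C, 0.98 for YBR012W-B, 0.38 for YML039W, 0.34 for YCL019W, -0.031 for YER160C and -0.65 for YJR027W. With runs of 400 spots centred YML039W (1.67) was above YJR029W (1.47). The highest member was YML039W on replicate 1, YJR029W on replicate 3 and YBR012W-B on replicate 4, and on replicate 2 YML039W was the highest with the sign turned and the lowest as deposited. Of the 21 pairs, 4 kept 1 order on all 4 arrays, with YML039W above YER160C and YJR027W, and YJR029W above YAR009C and YJR027W. As deposited it was 2 pairs, YJR029W above YCL019W and YER160C. Genes measured on all 3 arrays were themselves shifted from the median of all genes, with medians of -0.15, 0.64 and 1.31 on replicates 2, 3 and 4, above 0 on replicates 3 and 4 only. The 119 genes measured on all 4 arrays had a median of 2.09 on replicate 1, above the members' 1.20 there. On replicates 3 and 4 the members' medians were 0.87 and 1.64, against these 0.64 and 1.31.

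Above the median on each of replicates 2, 3 and 4 were 5 of the 7 members, against 25.2% of the 135 genes measured there. On replicates 1, 3 and 4, the arrays of one channel order, 6 of 7 were above it on every array, against 19.2% of 725 genes. On all 4 arrays it was 5 of 7, against 17.6% of 119 genes. At 2-fold or more on every array were 3 of 7 members on replicates 1, 3 and 4, against 4.83% of genes, and 1 of 7 on replicates 2, 3 and 4, against 5.19%. Counts that include replicate 2 turn on its sign. With replicate 2 as deposited, 6 of the 7 members lay below its median, and 1 of 7 was above the median on each of replicates 2, 3 and 4, against 29.6% of 135 genes. Fitted with limma over those 135 genes, 0 (0%) differed from the array median at an adjusted p under 0.05, and 6 did at an unadjusted p under 0.05.

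The copies are near-identical in sequence, so labelled cDNA of any Ty1 element may bind the spot of any other, and the ratios of different loci are not independent. No probe sequence was used here, and how far the spots share cDNA was not tested. What the data give is the spread between copies. Among the 7 members the SD was 1.18, 0.72, 2.08 and 0.65 on replicates 1 to 4. Over all genes it was 1.68, 1.76, 1.83 and 1.44, larger than among the members on replicates 1, 2 and 4 and smaller on replicate 3. Without YJR027W or YJR029W the members' SD on replicate 3 was 1.53 or 1.62, below that of all genes. Since the ratios of replicates 2 to 4 helped to choose the members, nothing is read from this comparison there. Duplicate spots of a gene had an SD of 0.97, 0.81, 0.83 and 0.55 on the same arrays. The members' SD was 1.21, 0.89, 2.51 and 1.19 times that of duplicate spots, although most members on replicates 2 to 4 are means of 2 spots. Leaving out YML039W on replicate 1 or YBR012W-B on replicate 4 gave 0.97 and 0.74 times. Leaving out any other member gave 1.13 to 1.32 times on replicate 1 and 1.08 to 1.30 times on replicate 4. With any 1 member left out it was 0.54 to 0.98 times on replicate 2 and 1.85 to 2.75 times on replicate 3.

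Across the 4 arrays, the root mean square difference between the profiles of 2 members had a median of 1.62 over 21 pairs. It ranged from 0.64 for YBR012W-B and YCL019W, a Ty1 and a Ty2 ORF, to 3.499 for YJR029W and YJR027W. Over 6216 pairs of the other 112 genes measured on all 4 arrays the median was 2.37. Because the ratios of replicates 2 to 4 helped to choose the members, no likeness of the copies is read from this comparison or from those that follow. The genes nearest to the members' median profile were PGK1 (phosphoglycerate kinase, 0.53), ILV2 (acetolactate synthase, 0.56), IRC18 (0.62), SOD2 (mitochondrial superoxide dismutase, 0.70) and SIS2 (0.79). Set against the median of the other 6 members, so that an ORF does not enter its own yardstick, YCL019W differed by 0.80, and 4 of the 112 genes were nearer. For YJR029W and YJR027W, 68 and 63 of them were nearer than the ORF itself.

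The 20 other Ty ORFs with a value, 9 long and 11 short, were spread on both sides of the median. They were listed by systematic name, and each had a value on some arrays only. The list was not sorted by Ty family, so some may not be near-identical to the members. Its long ORFs are annotated with 3468 to 5383 bases and its short ones with 681 to 1323. On replicate 1 their median was 1.25 over 20 ORFs, with 14 above the array median, and on replicate 2 it was 0.66 over 3 ORFs, with 2 above. On replicate 3 it was -0.72 over 10 ORFs, with 4 above, and on replicate 4 it was 0.37 over 9 ORFs, with 7 above. At 2-fold or more higher were 11 of 20 on replicate 1, against 26% of genes, and 1 of 3 on replicate 2, against 27.7%. On replicate 3 it was 2 of 10, against 28.9% of genes, and on replicate 4 it was 3 of 9, against 22.5%. On replicate 3, 5 of the 10 were at 2-fold or more lower, against 21.9% of genes. On replicates 1, 2 and 4 it was 1 of 20, 0 of 3 and 0 of 9, against 21.1%, 29.2% and 17.4%. The count above the median on replicate 3 was thus 4 of 10 for these ORFs and 6 of 7 for the members, which were chosen with their ratios known.

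**Figure D2:**
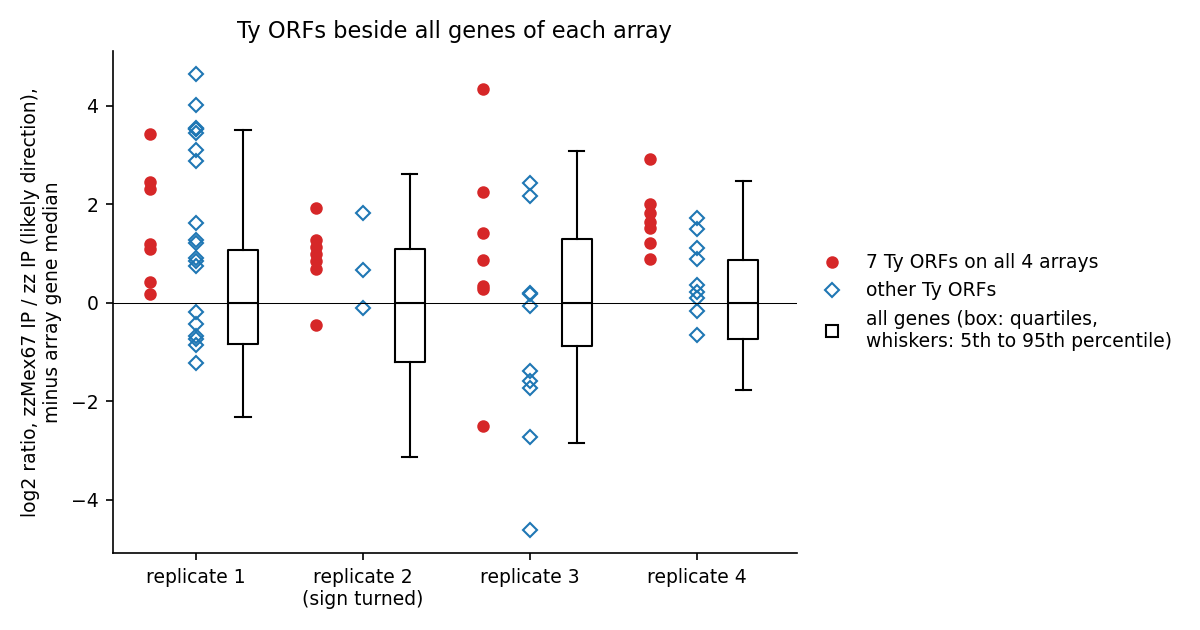
Log2 ratio minus the array's gene median (vertical axis) on each array for the 7 Ty ORFs measured on all 4 arrays (filled circles), the other Ty ORFs (open diamonds) and all genes (box at the quartiles, whiskers at the 5th and 95th percentile). The other Ty ORFs reach from -1.22 to 4.65 on replicate 1 and from -4.62 to 2.43 on replicate 3.

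Of the other long ORFs, 4 had a value on replicates 1, 3 and 4. YHR214C-B had 1.61, 0.18 and 1.50 there, and YBL005W-B had -1.22, 0.19 and 0.89. YER138C had 0.85, -1.38 and 1.10, and YMR050C had -0.44, -1.72 and 1.72. All 4 were above the median on replicate 4, and only YHR214C-B was on all 3 arrays.

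The short ORF of an element lies at the start of the same transcript as its long ORF, so both spots can bind the same RNA. On replicate 1 the short ORFs of 6 members' elements were measured, and 5 of the 6 had a higher ratio than their long ORF. YJR026W had 3.53 against 1.20 for YJR027W, YAR010C had 2.87 against 1.09 for YAR009C, and YCL020W had 1.28 against 0.42 for YCL019W. YJR028W had 3.10 against 2.45 for YJR029W, and YML040W had 3.45, close to the 3.42 of YML039W. The exception was YBR012W-A, at -0.19 against 0.18 for YBR012W-B. The short ORFs named here without a value on 3 arrays were chosen after their values were seen.

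The second platform did not keep that order. The short ORF was the higher in 1 of 3 pairs on replicate 2, 1 of 3 on replicate 3 and 0 of 2 on replicate 4. On replicate 3 the differences of the short minus the long ORF ran from -3.06 for YCL020W and YCL019W to 4.94 for YJR026W and YJR027W, and YAR010C (2.16) was close to YAR009C (2.25). On replicate 4 YML040W had -0.66 where YML039W had 1.64. Across both platforms, differences of over 1 log2 unit within an element occurred on every array. The SD of a single spot, from duplicate spots, was 0.55 to 0.97. A difference between 2 spots varies more than 1 spot does, so differences near 1 are not set apart from spot noise. Among elements with no member here, the short YMR051C had 4.65 on replicate 1 and its long YMR050C -0.44, while YMR046C and YMR045C had 3.53 and 3.55.

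**Figure D3:**
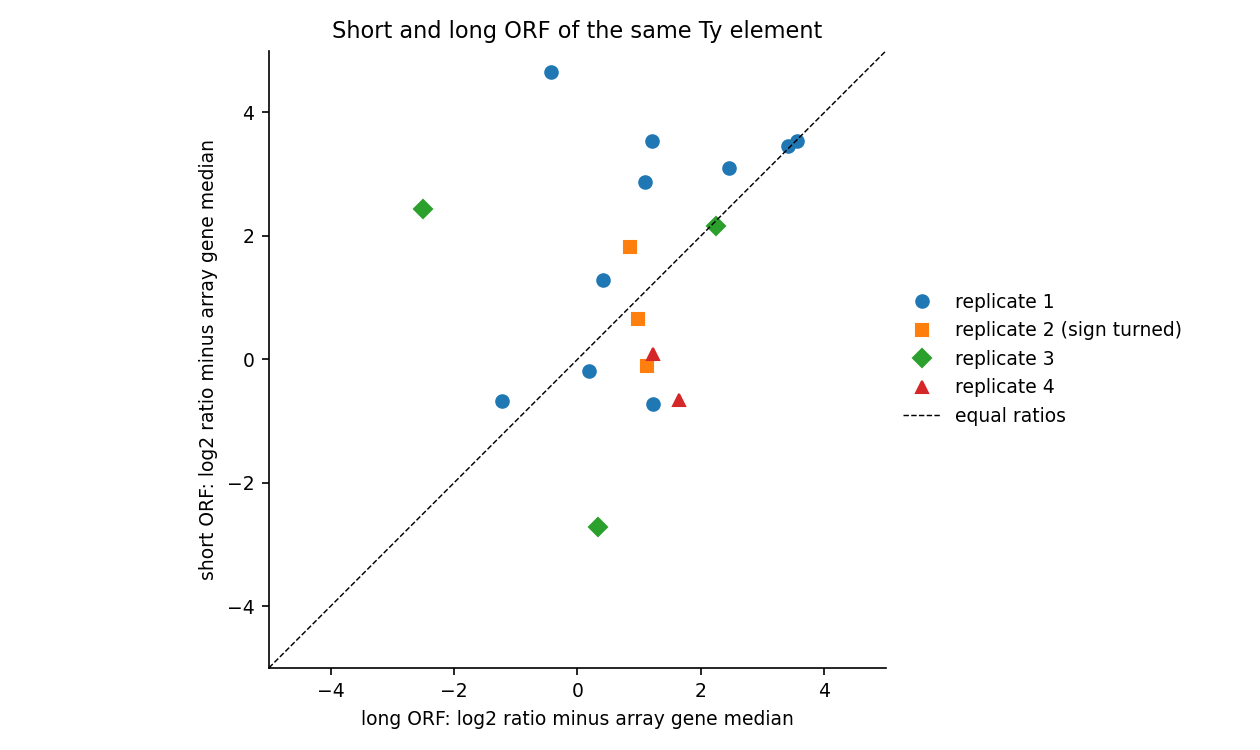
Log2 ratio minus the array's gene median of the short ORF (vertical axis) against that of the long ORF (horizontal axis) of the same Ty element, with a symbol for each array and a dashed line where both are equal. On replicate 1, 7 of 10 pairs lie above the line, with differences from -1.94 to 5.09. The pairs were not sorted by Ty family.

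The ratios of Ty spots on replicate 1 differed along the spot numbers. Its Ty spots numbered 3841 and above, 8 in all, read between 3.37 and 4.65, while the 21 Ty spots numbered up to 3840 read between -1.22 and 3.11, with the split made after the values were seen. The medians of all spots in these stretches differed less, at 0.24 and -0.22. Of the Ty ORFs only YML039W had a value in both stretches, at 3.11 and 3.73. For the others, position and ORF cannot be told apart. Runs of 400 spots had medians between -1.79 and 1.18, and the lowest run (-1.79) held YAR009C and YCL019W, while that of YBR012W-B had -1.10. After each run was centred on its own median, all 7 members were at 2-fold or more on replicate 1, between 1.21 and 3.44 with a median of 2.20, where 25.5% of its genes were. The SD among members was then 0.81, against 1.18 before. Of the 3 members lowest on that array before run centring, YCL019W read 2.20 after it, YAR009C 2.88 and YBR012W-B 1.28.

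**Figure D4:**
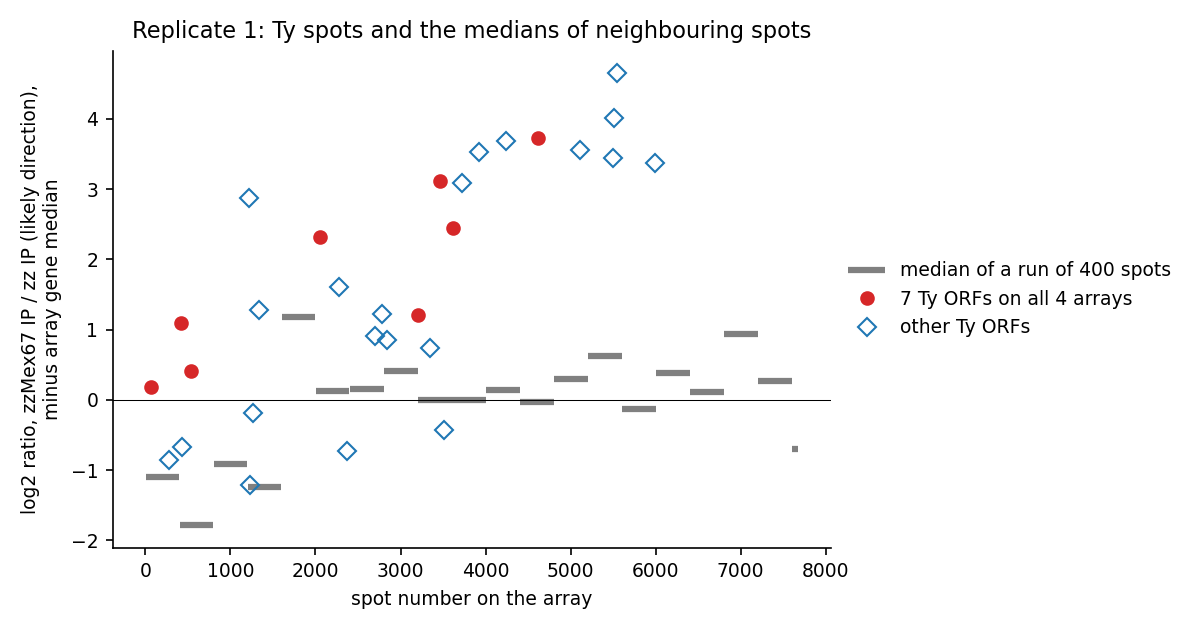
Log2 ratio minus the array's gene median (vertical axis) against the spot number on replicate 1 (horizontal axis) for spots of the 7 Ty ORFs (filled circles) and of other Ty ORFs (open diamonds), with grey bars at the median of each run of 400 spots. The spots of YBR012W-B, YAR009C and YCL019W lie at 0.18, 1.09 and 0.42 in runs whose medians are -1.10, -1.79 and -1.79.

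On the second platform, run centring gave members' medians of 0.28, 1.11 and 1.57 on replicates 2, 3 and 4, with 5, 5 and 7 of 7 above the median. At 2-fold or more higher were 0, 4 and 6 of 7 members, against 23.7%, 18.8% and 18.7% of genes. On replicate 2 some runs held as few as 1 spot with a value, so a run's median there can be set by the member itself. YML039W on that array stood in a run with 7 values and a median of 1.59, and read 0.28 after run centring.

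The long Ty ORFs that are not members had values more often than genes at large on replicates 1, 3 and 4, and none on replicate 2. The short ones had values less often than genes at large on replicate 4. Members had a value on every array by the way they were chosen, which raises any share that includes them. All 16 long Ty ORFs printed on replicate 1 had a value, against 79.0% of 5583 named genes. On the second platform 15 were printed, and 46.7%, 80% and 93.3% of them had a value on replicates 2, 3 and 4, against 9.46%, 41.2% and 43.7% of 5539 genes. The 8 long ORFs there that are not members had a value in 0, 5 and 7 cases, or 0%, 62.5% and 87.5%. Of the 10 short ORFs printed there, 3, 5 and 2 had a value, or 30%, 50% and 20%. Over both platforms, 25.9% of Ty ORFs with any value had one on all 4 arrays, against 2.27% of genes. Those Ty ORFs are the 7 members themselves, so nothing is read from that share. Why a spot has no value is not stated in the sources at hand.

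Genes for host factors that Ty elements are known to use lay on both sides of the median. Of 17 genes for transcription factors and chromatin proteins that act on Ty promoters (among them TEC1, STE12, SPT3 and GCR1), 9, 1, 8 and 7 were measured on replicates 1 to 4, and 5, 0, 5 and 4 of these lay above the median. Of 16 genes for RNA decay, debranching, integration and transposition control (among them DBR1, XRN1, LSM1 and RPC40), 14, 3, 6 and 9 were measured, with 8, 1, 2 and 9 above it. At 2-fold or more higher were 2, 0, 3 and 2 genes of the first list on replicates 1 to 4. Of the second list it was 4, 1, 1 and 5, against 26%, 27.7%, 28.9% and 22.5% of all genes. At 2-fold or more lower were 2, 1, 2 and 1 of the first list. Of the second list it was 3, 1, 2 and 0, against 21.1%, 29.2%, 21.9% and 17.4% of all genes. On replicate 4, the 9 measured genes of the second list had a median of 1.01. On replicate 3 its median was -0.68 over 6 genes, where the members had 0.87 and the 10 other Ty ORFs -0.72.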

How the data were processed

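The authors deposited a log10 ratio of both channels for each spot. Base 10 was inferred: 10 to the power of the value (or its inverse above 1) was within 2e-08 of a ratio of whole numbers up to 50 for 0.138% to 6.70% of an array's spots, against 0% to 0.152% with base 2. The numerator, the dyes, the background correction and any normalization by the authors are not stated in the labels or files. Array medians differed, so the deposited values were not centred. Values were converted to log2, the sign of replicate 2 was turned, the spots of a gene were averaged and each array was centred on its gene median (Python 3.11.15, pandas 2.3.3). Spots were named from the platform annotation and checked by gene identifier against RefSeq's R64 table, with 985 and 1662 spots unnamed and left out. That table gave ORF lengths and neighbours only, and no coordinates are printed because the files name no build.

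The members and lists were chosen with earlier results of these data known. Members were described and not tested against the array median. Dixon's outlier rule was applied to each of the 7 members, only to flag readings for a closer look. Limma 3.58.1 in R 4.3.3 (intercept, Benjamini-Hochberg) was fitted to the 135 genes on replicates 2, 3 and 4 for the background count alone, after a test on simulated data. Always named were the 7 members, other Ty ORFs measured on 3 or more arrays, and the 5 genes nearest to the members' median profile. Alternatives were the sign of replicate 2, centring, scaling, spot averaging, the arrays used and leaving out each replicate. Without intensities, no filter on dim spots was run, and the number of arrays limits the precision.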

Additional observations from a re-analysis of the deposited data

Results flagged for a closer look

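YJR027W on replicate 3, at -2.502, lay far from its other 3 arrays, which read between 0.68 and 1.22. The gap to the nearest array was 0.855 of the whole range, above Dixon's 95% critical value for 4 samples, used here as a flag only. No significance is read from it, since the arrays are of 2 platforms and the ratios of replicates 2 to 4 helped to choose the members. With replicate 2 as deposited the gap was 0.49 of the range, under that value. The reading came from 1 of 2 spots. All 7 members were checked in this way, and their ratios are not independent. Chance would pick out about 1 in 20 groups of 4 like samples, which these arrays are not.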

How the results depend on the processing

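The median over members of their means on replicates 2, 3 and 4 was 1.10. It was 0.38 with replicate 2 as deposited, 1.697 without centring of arrays and 1.55 over the 5 members with every printed spot measured, and leaving out 1 array gave 0.86 to 1.53. The count of members above the median on each of replicates 2, 3 and 4 was 5, which became 1 with replicate 2 as deposited. It was 4 with runs centred, 4 without centring (as positive ratios) and 6 with quantile normalization. Of the 5 members with every printed spot measured it was 4. Leaving out 1 array gave 5 to 6, but that removes a condition, so the count could not fall. The median on replicate 1, 1.20, was 2.47 without centring. With replicate 2 as deposited the mean of YER160C turned to -0.031, those of YML039W and YCL019W were 0.38 and 0.34, and on replicate 2 the other Ty ORFs turned to -0.66 and the second host list to 0.14. The mean of YJR027W turned positive without centring (0.397), with runs centred (0.023), on all 4 arrays (0.15) and without replicate 3 (0.95), and leaving out 1 array gave -0.91 to 0.95. With runs centred the mean of YER160C was 0.035, against 0.81. The host list medians turned to 0.44 (second list, replicate 2) and -0.21 (first list, replicate 3) without centring. Run centring turned them to -0.12 and -0.41 (first list, replicates 1 and 3) and 0.016 (second list, replicate 2). The other Ty ORFs turned to 0.0596 on replicate 3 with every printed spot measured. The cause was not tested for any of these. Leaving out YJR027W, chosen after seeing the data, gave a median of 1.32. No paired analysis was possible because the 4 arrays form 1 group.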
